A study of Mus musculus with 2 samples.

Results

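Genes of glutathione metabolism, targets of the transcription factor NRF2 and metallothioneins were compared between cultured mouse neural retinal progenitor cells (mNRPCs) and mouse retina tissue. The 10 genes Nqo1, Hmox1, Gclc, Gclm, Txnrd1, Slc7a11, Gstm1, Gpx1, Mt1 and Mt2 were taken by name from the 31253 genes of the table. All 10 were found and all 10 passed the minimum of 1 FPKM in at least 1 library, as did 13780 genes in all. FPKM is the number of sequenced fragments scaled by transcript length and by all mapped fragments, so levels of different genes can be set side by side within a library.

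The series held 2 RNA sequencing libraries, 1 of mNRPCs at passage 24 and 1 of retina tissue, both from C57BL/6 mice. The study's methods describe mNRPCs as cells of adult neural retina, grown on Matrigel in DMEM/F12 with the N2 and B27 supplements and beta-mercaptoethanol, to which bFGF, a growth factor, and CHIR99021, which blocks the kinase GSK3, were added. The age of the mice behind the retina library was not given in the sources used here. Beta-mercaptoethanol is a reducing thiol, N2 supplies selenium and B27 in its usual form carries antioxidants, so cell type and culture medium cannot be told apart in this comparison. Each library stands for 1 culture or 1 tissue preparation, so no difference has a replicate check and no p-value was calculated.

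NRF2, encoded by Nfe2l2, is held in the cytoplasm by KEAP1 and degraded. Under oxidative or electrophilic stress it enters the nucleus, binds antioxidant response elements and switches on genes that make glutathione, reduce quinones and break down heme. Glutathione is a small thiol peptide that enzymes use to remove peroxides and to tag reactive compounds. Metallothioneins are small proteins rich in cysteine that bind zinc and copper, and their genes are driven by the zinc sensor MTF1 through metal response elements. In retina, photoreceptors carry a high oxidative load, and Müller glia are known for their glutathione.

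The retina library held rod transcripts at a high level and the mNRPC library did not. The 10 rod markers summed to 19671.4 FPKM in retina and 19.4 FPKM in mNRPCs (0.0987% of the retina level), and the 8 Müller glia markers to 1985.4 and 54.1 FPKM. Of 9 retinal progenitor markers 8 reached 1 FPKM in each library, with sums of 823.9 FPKM in mNRPCs and 273.6 FPKM in retina. Rax was listed at 0 in mNRPCs against 81.7 FPKM in retina, and Nes was at 9.42 and 0.841 FPKM. Ccnd1 (371.4 and 4.26 FPKM) and Sox2 (230.6 and 18.5 FPKM) gave most of the mNRPC sum, the other 7 markers summed to 221.9 and 250.8 FPKM, and Lhx2 was at 3.06 and 15.9 FPKM. Markers of microglia (1 of 7 at 1 FPKM), endothelium (0 of 5), red blood cells (0 of 5) and pigment epithelium (1 of 5) mostly stayed under 1 FPKM in mNRPCs, whereas 3, 4, 4 and 4 of them reached 1 FPKM in retina. The exception in pigment epithelium was Rdh5, at 9.28 FPKM in mNRPCs and 4.63 FPKM in retina. C1qa, C1qb, C1qc, Cx3cr1, P2ry12, Aif1, Cldn5, Cdh5, Hbb-bs, Hbb-bt, Alas2, Rpe65, Ttr and Rgr were listed at 0 in mNRPCs. The 6 fibroblast and pericyte markers summed to 457.6 FPKM in mNRPCs and 5.63 in retina, and Col3a1 alone gave 449.8 of the former. Their part in the results was not tested, and in tissue fewer cells of a type and less RNA per cell cannot be told apart. The FPKM sums were 616860 in mNRPCs and 432256 in retina, and the depth estimated from the lowest values was 6.17e+06 and 5.13e+06 fragments. Counting errors below rest on this estimate and cover counting only.

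Of the 10 genes, 8 were past 2-fold in the direction of mNRPCs, 0 were past 2-fold in the direction of retina, and Gclc and Slc7a11 were past neither limit. The corresponding shares of all 13780 genes were 24.5% higher and 30% lower in mNRPCs. The fold was read from the log2 ratio of (mNRPC FPKM + 1) to (retina FPKM + 1), which understates differences of low genes. The median log2 ratio of the 10 genes was 2.27, against −0.12 for all genes. When both libraries were rescaled to a common sum, 7 of the 10 were higher and 0 lower, against 18.7% and 41.9% of all genes, and the medians were 1.86 and −0.66. Together the 10 genes held 1517.7 FPKM in mNRPCs (0.246% of the library) and 294.5 FPKM in retina (0.068%).

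**Figure D1:**
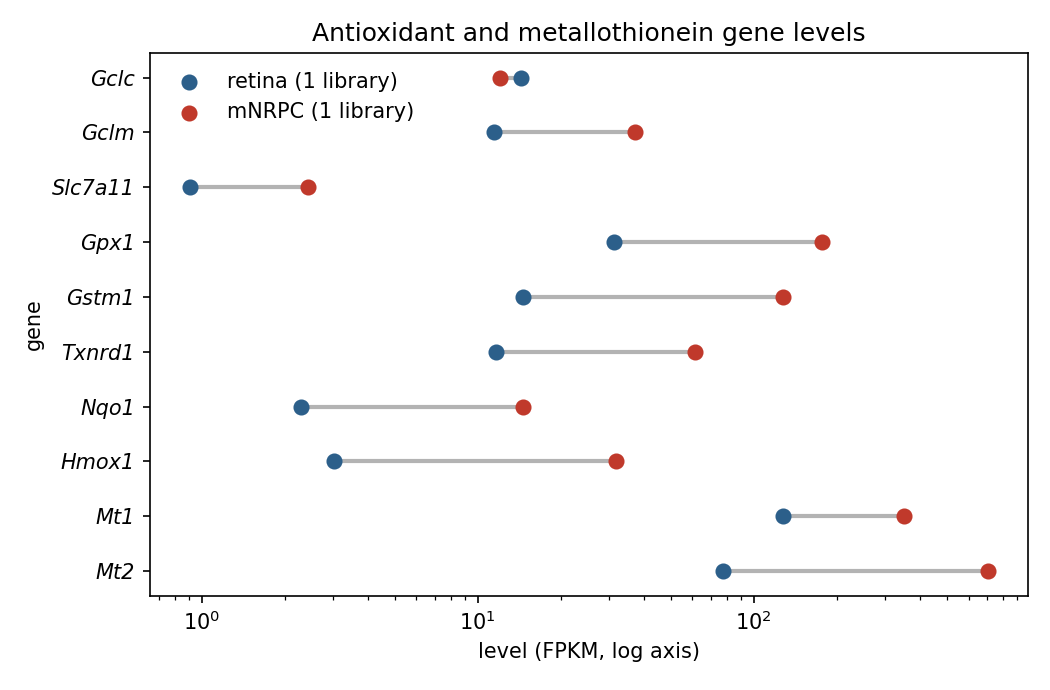
Level of each of the 10 genes in FPKM on a log axis, with 1 point for the mNRPC library, 1 for the retina library and a line joining them. The mNRPC point lies to the right for 9 genes, and the points of Gclc nearly coincide at 12.1 and 14.3 FPKM.

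Glutathione synthesis was described first. Slc7a11 encodes the light chain of the cystine/glutamate exchanger, which brings in the cystine from which cysteine is made. Its level was 2.43 FPKM in mNRPCs and 0.905 FPKM in retina, the lowest of the 10 genes in both libraries. The mNRPC level was 2.69-fold higher without the added 1, while the log2 ratio was 0.85 (counting error 0.25) and lay within the 2-fold limits. With 0.1 added in place of 1 the log2 ratio was 1.33, past the limit. The partner chain Slc3a2, which the exchanger shares with amino acid transporters, was at 191.3 and 81.4 FPKM, a log2 ratio of 1.22. This ratio was within the 2-fold limits with the common sum (0.66) and with curated rows only (0.67). With the highest transcript row alone it was 1.56. Slc3a2 was 78.7 times the level of Slc7a11 in mNRPCs and 90.0 times in retina.

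Gclc and Gclm encode the catalytic and the modifier subunit of glutamate-cysteine ligase, the rate-limiting enzyme of glutathione synthesis. Gclc was at 12.1 FPKM in mNRPCs and 14.3 FPKM in retina, a log2 ratio of −0.23 (counting error 0.13), and it was the one gene of the 10 with the higher level in retina. Gclm was at 37.1 and 11.5 FPKM, 3.23-fold higher in mNRPCs with a log2 ratio of 1.61 (0.09). The subunits therefore stood in a different order, with Gclm at 3.06 times the level of Gclc in mNRPCs and at 0.801 times in retina. This balance within a library does not depend on how the libraries are scaled, but it depends on the transcript rows of Gclc, and with its curated row alone Gclm was at 13.2 and 0.825 times its level.

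The Gclc value combined 2 transcript rows that went in opposite directions. The curated transcript NM_010295.2 was at 2.81 FPKM in mNRPCs and 13.9 FPKM in retina, and the predicted transcript XM_006510812.1 at 9.30 and 0.416 FPKM. The predicted transcript thus held 76.8% of Gclc in mNRPCs and 2.9% in retina. With curated rows alone the log2 ratio of Gclc was −1.97, past the 2-fold limit and lower in mNRPCs. How fragments shared by both transcripts were divided was not tested.

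Letters of the antioxidant response element core stood upstream of both Gclm and Slc7a11. The windows searched were the 250 bases before the RefSeq gene start (GRCm38.p6), given for 8 of the 10 genes as 11 windows, some genes having more than 1 start. No window was used for Hmox1 and Gclc, so these were not searched. The core was searched as TGACNNNGC and as TGAGNNNGC on both strands. Either form was in 4 of these 11 windows, 1 each of Gclm, Slc7a11, Txnrd1 and Mt2, against 23.0% of all 32851 windows. The windows of Nqo1, Gpx1, Gstm1 and Mt1 did not hold these letters. Bases further upstream or after the start were not searched, so an element there would have been missed. The stretches below show these matches in capitals, 5′ to 3′ on the strand of the gene. In the Gclm stretch the capitals also mark matches to TGCGCNC, a form of the metal response element core, the first of which overlaps the antioxidant core. A match is a description of letters and not a bound site.

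Gclm, chr3:122245397-122245506, plus strand: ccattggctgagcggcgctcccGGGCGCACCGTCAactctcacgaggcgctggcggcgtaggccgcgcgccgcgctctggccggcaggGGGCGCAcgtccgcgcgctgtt
Slc7a11, chr3:50443654-50443763, minus strand: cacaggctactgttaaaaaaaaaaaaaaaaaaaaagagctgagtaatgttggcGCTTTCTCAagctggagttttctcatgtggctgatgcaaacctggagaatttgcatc

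Gss and Gsr, in the rest of the glutathione cycle, lay within 2-fold. Gss, which adds glycine in the final step of synthesis, was at 13.3 FPKM in mNRPCs and 8.56 FPKM in retina (log2 ratio 0.58), and Gsr, which reduces oxidised glutathione, at 16.4 and 10.4 FPKM (0.61). Of the 15 other genes of synthesis, recycling and export 12 passed the minimum, of which 2 were higher, 4 lower and 6 within 2-fold, near the shares of all genes (24.5% and 30%). Cth, which makes cysteine from cystathionine, was the other higher gene, at 18.3 and 3.16 FPKM (2.22, and 3.61 with curated rows only). The lower genes were Ggt7 (0.0641 and 12.2 FPKM), the neuronal glutamate and cysteine transporter Slc1a1 (listed at 0, and 11.2), the oxoprolinase Oplah (2.18 and 10.7, log2 ratio −1.88) and Cbs (0.138 and 1.85), the enzyme before Cth. The mNRPC values of Ggt7 and Cbs came to an estimated 1.03 and 2.15 fragments, under the 3 fragments taken as the limit of detection.

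Genes that use glutathione were higher in mNRPCs among the members. Gpx1, a selenium-dependent peroxidase of the cytosol and mitochondria, was at 176.9 FPKM in mNRPCs and 31.1 FPKM in retina, 5.68-fold higher with a log2 ratio of 2.47 (counting error 0.12). Among its relatives, Gpx4, which protects membrane lipids, was at 513.5 and 551.2 FPKM (−0.10) and was the more abundant of the 2 in both libraries. Gpx4 was 2.90 times the level of Gpx1 in mNRPCs and 17.7 times in retina. Of the 7 other glutathione peroxidases 4 passed the minimum, with 1 higher and 2 lower in mNRPCs, numbers too small to set against the 24.5% and 30% of all genes. Gpx8, of the endoplasmic reticulum, was at 136.1 and 8.52 FPKM (3.85), the secreted Gpx3 at 0.233 and 20.1 FPKM (−4.10) and Gpx7 was listed at 0 and at 1.39 FPKM. The mNRPC value of Gpx3 came to 2.29 fragments, also under the limit. The summed level of these 7 genes was 650.0 FPKM in mNRPCs and 581.2 FPKM in retina.

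Gstm1, a glutathione S-transferase of the mu class, was at 127.4 FPKM in mNRPCs and 14.6 FPKM in retina, 8.74-fold higher with a log2 ratio of 3.04 (0.15). Mu class genes are close copies of each other, and fragments can be divided among them with error. The 7 mu genes together came to 415.8 and 104.0 FPKM, a log2 ratio of 1.99. Gstm2 was at 124.8 and 0.774 FPKM (6.15, with 4.22 fragments in retina) and Gstm7 at 31.2 and 2.57 FPKM (3.17). Gstm1 was 1.02 times the level of Gstm2 in mNRPCs and 18.8 times in retina. Of all 25 other transferases, 19 passed, of which 8 were higher, 5 lower and 6 within 2-fold, against 24.5% and 30% of all genes, with a median log2 ratio of 0.42. With the common sum 6 were higher and 6 lower, against 18.7% and 41.9%, and the median was −0.11. The omega class gene Gsto1 was at 391.3 and 32 FPKM (3.57). The lower genes Gsta1, Gsta3, Gstm6, Gstt2 and Gstk1 each stayed under 10 FPKM in retina, with 6.67 FPKM for Gstk1 as the highest.

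Txnrd1, the selenoprotein that reduces cytosolic thioredoxin, was at 61.3 FPKM in mNRPCs and 11.7 FPKM in retina, 5.24-fold higher with a log2 ratio of 2.29 (0.12). The transcript NM_001042513.1 was at 51.3 and 6.66 FPKM and held 83.8% of the gene in mNRPCs and 56.9% in retina. NM_015762.2 was at 7.72 and 3.79 FPKM, with 12.6% and 32.4%, and both were higher in mNRPCs. The other 2 transcripts held at most 7.9% in either library. The start of NM_015762 lies at position 82859179 in GENCODE M21, inside the window that carries an antioxidant response element core. The start of NM_001042513 lies at 82859207, next to the end of this window, so both starts lie after the core (capitals, 5′ to 3′).

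Txnrd1, chr10:82859066-82859175, plus strand: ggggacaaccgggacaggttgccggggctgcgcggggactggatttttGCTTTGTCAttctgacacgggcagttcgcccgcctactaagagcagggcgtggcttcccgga

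**Figure D2:**
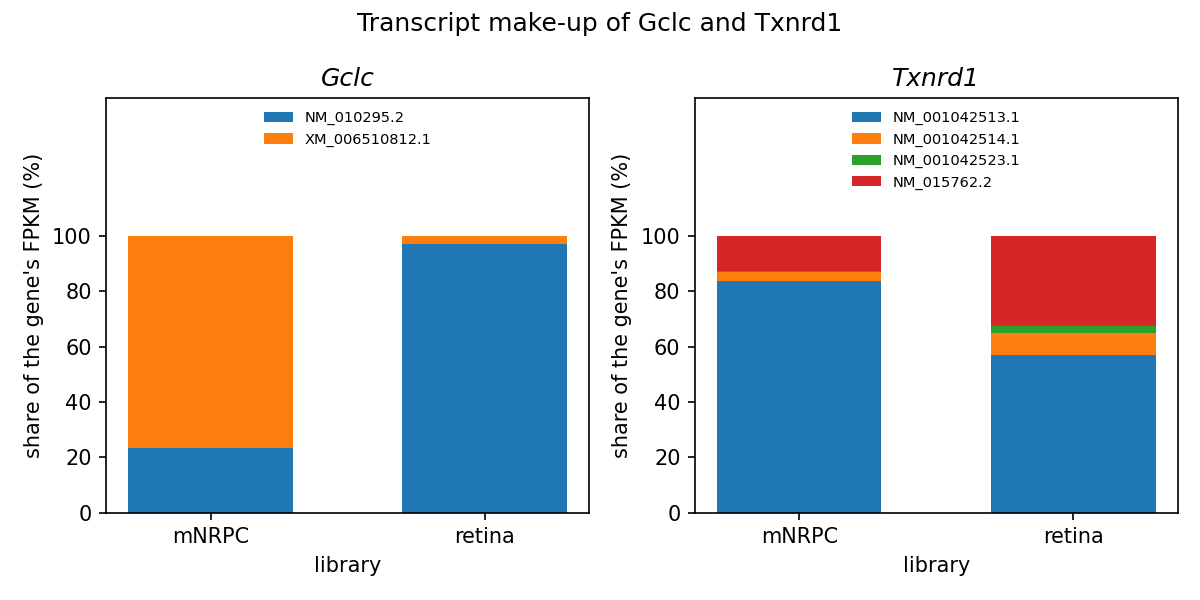
Share of the gene's FPKM in percent held by each transcript row of Gclc (left) and Txnrd1 (right), as stacked bars for the mNRPC and the retina library. The larger part of Gclc is the predicted transcript in mNRPCs (76.8%) and the curated one in retina (97.1%), while NM_001042513.1 is the larger part of Txnrd1 in both (83.8% and 56.9%).

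The thioredoxin partners of Txnrd1 were also higher. Txn1, the thioredoxin it reduces, was at 451.3 FPKM in mNRPCs and 56.6 FPKM in retina (log2 ratio 2.97), and Prdx1, a peroxidase fed by thioredoxin, at 561.4 and 87.9 FPKM (2.66). The list of thioredoxin, peroxiredoxin and superoxide genes also held catalase (Cat, log2 ratio 1.81) and glutaredoxins. The latter were Glrx (1.53), Glrx2 (−0.14), Glrx3 (1.66) and Glrx5 (1.31). Of the 19 genes of the list 19 passed, with 12 higher, 1 lower and 6 within 2-fold (24.5% and 30% of all genes), and a median log2 ratio of 1.28. After rescaling to a common sum 8 were higher, 2 lower (18.7% and 41.9% of all genes) and the median was 0.72. Prdx4, of the endoplasmic reticulum, was at 159.6 and 14.3 FPKM (3.39). Txnip, which binds and inhibits thioredoxin, was at 255.8 and 4.90 FPKM (5.44), so the inhibitor was higher together with the enzymes. The lower gene was Sod3, the extracellular superoxide dismutase, listed at 0 in mNRPCs and at 2.77 FPKM in retina. The mitochondrial Txnrd2 was below Txnrd1 in both libraries, with Txnrd1 at 6.68 times its level in mNRPCs and 1.98 times in retina.

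Nqo1 and Hmox1 are the targets most used as readouts of NRF2. Nqo1, which reduces quinones, was at 14.6 FPKM in mNRPCs and 2.29 FPKM in retina, 6.40-fold higher with a log2 ratio of 2.25 (0.36), on 140.0 and 18.2 estimated fragments. Hmox1, the inducible heme oxygenase, was at 31.6 and 3.03 FPKM, 10.5-fold higher with a log2 ratio of 3.02 (0.30), on 306.0 and 24.3 fragments. Low retina counts gave both the widest counting errors of the 10 genes, and both ratios exceeded these errors. Within each library both lay below most of the others. The constitutive Hmox2 was at 48.2 and 28.6 FPKM (0.73), so it exceeded Hmox1 by 1.52 times in mNRPCs and 9.45 times in retina.

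**Figure D3:**
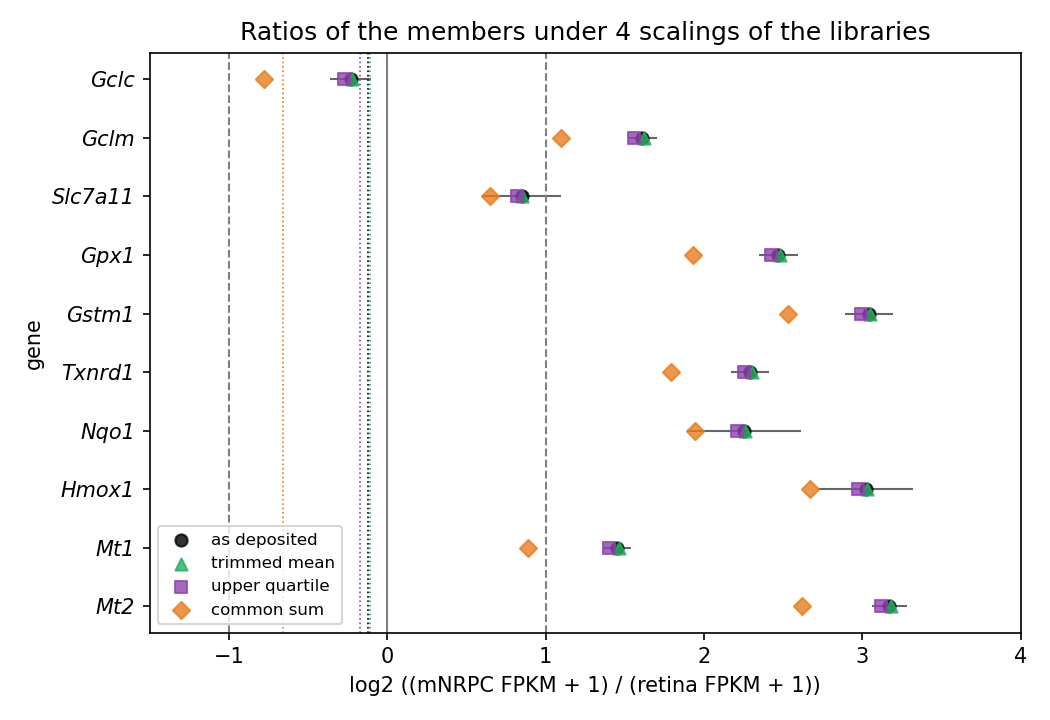
Log2 ratio of (mNRPC FPKM + 1) to (retina FPKM + 1) for the 10 genes under 4 scalings of the libraries (symbols), with the counting error of the deposited values as a bar, the 2-fold limits as dashed lines and the all-gene medians as dotted lines. The symbols span 2.62 to 3.18 for Mt2 and −0.78 to −0.22 for Gclc, and the common sum puts Mt1 (0.89) inside the 2-fold limits.

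The other genes of the heme and iron steps were compared beside Hmox1. Of 9 genes 9 passed, with 4 higher and 1 lower under both scalings, beside 24.5% and 30% of all genes as deposited and 18.7% and 41.9% with the common sum. Ftl1 and Fth1, the ferritin chains that store iron, were at 3961 and 2992.3 FPKM in mNRPCs and 343.6 and 727.9 FPKM in retina, log2 ratios of 3.52 and 2.04. Blvrb, which reduces biliverdin, was at 33.9 and 5.96 FPKM (2.33). Fech, which inserts iron into heme, was at 34.7 and 10.6 FPKM (1.62). Tfrc, the transferrin receptor that takes up iron, went the other way, at 18.2 and 53.9 FPKM (−1.51). Ferritin chain genes have many processed copies, and fragments of these may have been assigned to the genes, which was not tested.

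Of the 18 other NRF2 targets 15 passed, of which 8 were higher, 2 lower and 5 within 2-fold, beside 24.5% and 30% of all genes, with a median log2 ratio of 1.18. After rescaling to a common sum the counts were 6 and 2, beside 18.7% and 41.9%, and the median was 0.63. Aldh3a1, an aldehyde dehydrogenase, was at 567.3 FPKM in mNRPCs and 3.28 FPKM in retina (7.05), the aldo-keto reductase Akr1b8 at 60.3 and 1.08 FPKM (4.88) and Trim16 at 11.2 and 0.241 FPKM (3.30, on 4.82 fragments in retina). Cbr1, a carbonyl reductase, was at 0.377 and 32.4 FPKM (−4.60), on 2.87 fragments in mNRPCs, and Me1, the cytosolic malic enzyme that supplies NADPH, at 29.9 and 69.3 FPKM (−1.19). Srxn1, the sulfiredoxin that repairs peroxiredoxins and a direct NRF2 target, was at 18.4 and 23.1 FPKM (−0.31). Srxn1, like the member Gclc, thus lay within 2-fold.

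Among the regulators, Nfe2l2 was at 55.6 FPKM in mNRPCs and 12.7 FPKM in retina, a log2 ratio of 2.05, or 1.54 with the common sum. Keap1, its inhibitor, was at 27.6 and 16.2 FPKM (0.73), and Bach1, which competes with NRF2 for the same elements and represses Hmox1, at 7.96 and 5.81 FPKM (0.40, and −0.10 after rescaling). Of 14 regulators 13 passed, with 3 higher, 1 lower and 9 within 2-fold, beside 24.5% higher and 30% lower over all genes, and 2 higher and 2 lower with the common sum, beside 18.7% and 41.9%. Sqstm1, encoding p62, which draws KEAP1 into autophagy, was at 354.2 and 128.5 FPKM (1.46, and 0.90 with the common sum). The NRF2 partner Maff was at 9.33 and 0.441 FPKM (2.84, on 4.43 fragments in retina). The lower gene was Btrc, part of a ubiquitin ligase that acts on NRF2, at 4.48 and 12.3 FPKM (−1.28, and −0.40 with the highest transcript row alone). These are RNA levels, and NRF2 activity is set largely by protein stability, which was not measured here.

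Mt1 and Mt2 were the most abundant of the 10 genes in both libraries. Mt2 was at 703.1 FPKM in mNRPCs and 77.3 FPKM in retina, 9.10-fold higher with a log2 ratio of 3.17 (0.11). Hmox1 was above it in fold without the added 1 (10.5) and in log2 ratio with the common sum (2.67 against 2.62), so no order is read between them. Mt1 was at 351.1 and 127.8 FPKM, 2.75-fold higher with a log2 ratio of 1.45 (0.09), and 0.89 after rescaling to a common sum. Their order was turned between the libraries, with Mt2 at 2.0 times the level of Mt1 in mNRPCs and 0.605 times in retina. Mt1 and Mt2 together made up 69.5% of the FPKM of the 10 genes in mNRPCs and 69.6% in retina.

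The metal response element core was searched as TGCACNC and TGCGCNC on both strands in the same upstream windows. The Mt2 window had 3 matches, a number that 1.26% of all windows reached, and 1 antioxidant response element core. The Mt1 window had 1 metal core match and no antioxidant core. Either metal form was in 5 of the 11 windows, against 21.4% of all windows. These were 1 each of Mt1, Mt2 and Gclm and 2 overlapping windows of Gstm1 that hold the same match. Both windows are shown because the order of these paralogues differed between the libraries. Capitals mark all matches, 5′ to 3′. The windows end at the RefSeq start, and bases after it were not searched, although GENCODE M21 places the start of Mt2 further on, at 94172664. Elements outside the windows of Mt1 and Mt2 were not counted, so the matches do not show how many elements either gene has.

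Mt2, chr8:94172368-94172617, plus strand: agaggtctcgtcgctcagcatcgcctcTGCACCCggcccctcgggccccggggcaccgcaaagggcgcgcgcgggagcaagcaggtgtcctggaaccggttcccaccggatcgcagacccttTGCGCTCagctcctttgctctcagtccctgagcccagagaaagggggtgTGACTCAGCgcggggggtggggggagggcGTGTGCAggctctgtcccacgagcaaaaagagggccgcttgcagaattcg
Mt1, chr8:94178839-94179088, plus strand: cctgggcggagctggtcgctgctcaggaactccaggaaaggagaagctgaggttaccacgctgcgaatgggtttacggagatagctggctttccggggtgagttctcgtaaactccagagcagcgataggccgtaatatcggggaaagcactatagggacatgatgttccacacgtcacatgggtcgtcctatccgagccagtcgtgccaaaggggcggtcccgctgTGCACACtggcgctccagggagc

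The third expressed metallothionein behaved in the opposite way. Mt3, known from neural tissue, had 49.1 FPKM in retina but was listed at 0 in mNRPCs. Its retina level was 0.384 times the level of Mt1 and 0.635 times that of Mt2. Mtf1, the zinc sensor, was at 2.75 and 6.00 FPKM (log2 ratio −0.90, and −1.5 with the common sum). The zinc exporter Slc30a1, itself a target of MTF1, was at 3.20 and 11.2 FPKM (−1.54). Of the 7 other metallothionein and metal genes 6 passed, with 2 higher and 2 lower, near the 24.5% and 30% of all genes. With the common sum 1 was higher and 3 were lower, beside 18.7% and 41.9% of all genes. The importers Slc39a14 (13.5 and 6.25 FPKM, at the 2-fold limit, 0.52 with the common sum and 0.02 with the highest transcript row alone) and Slc39a8 (2.78 and 0.395 FPKM, 1.44) were the higher ones.

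Genes that build selenoproteins, the class to which Gpx1 and Txnrd1 belong, were compared last. All 5 passed and 0 were higher or lower, beside 24.5% and 30% of all genes. After rescaling to a common sum 0 were higher and 1 was lower, beside 18.7% and 41.9% of all genes. Over the 9 lists 102 of 119 other genes passed, of which 40 were higher, 18 lower and 44 within 2-fold, against 24.5% and 30% of all genes. With the common sum these were 29 higher and 24 lower, beside 18.7% and 41.9% of all genes.

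**Figure D4:**
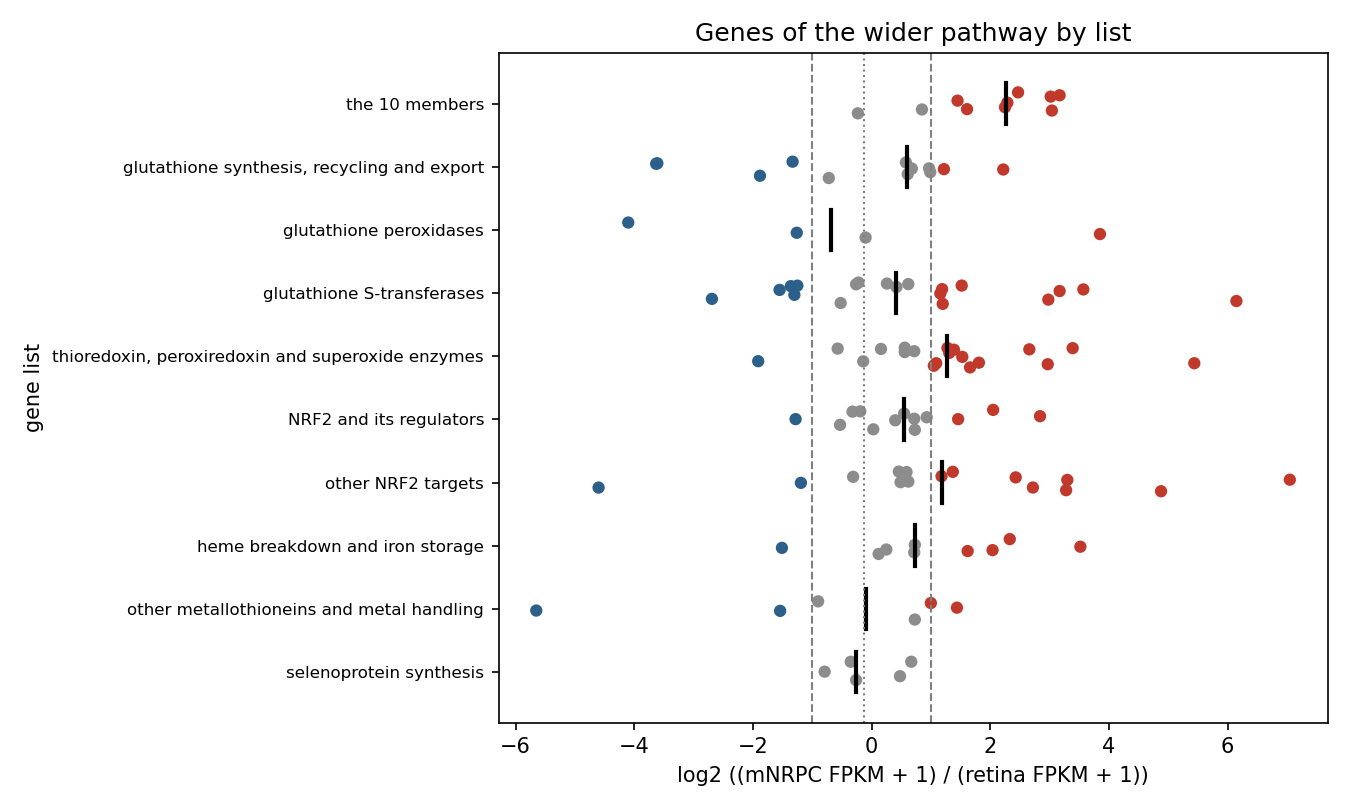
Log2 ratio of (mNRPC FPKM + 1) to (retina FPKM + 1) for the 10 genes (top) and for each gene of 9 further lists that reached 1 FPKM, with red for at least 2-fold higher in mNRPCs, blue for at least 2-fold lower, grey for between, and a black bar at the list median. Dashed lines are the 2-fold limits and the dotted line is the median of all genes (−0.12). The thioredoxin list lies mostly to the right (median 1.28) and the selenoprotein list around 0 (median −0.26).

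The levels within each library were also placed among the genes of at least 1 FPKM, 11076 in mNRPCs and 12639 in retina. In mNRPCs Mt2 lay above 98.8% of these genes, Mt1 above 97.8%, Gpx1 above 95.8% and Gstm1 above 94.0%. In retina Mt1 lay above 96.5% and Mt2 above 93.2%, while Gpx1 lay above 80.6% and Gstm1 above 59.5%. Hmox1 differed most, from above 17.3% of the genes in retina to above 75.3% in mNRPCs. Nqo1 lay above 12.4% and 53.7%, and Gclc above 59.0% and 48.1%. Placed by ratio, Mt2 exceeded 95.3% of all genes compared, Gstm1 94.9%, Hmox1 94.8%, Gpx1 92.3%, Txnrd1 91.1%, Nqo1 90.8%, Gclm 84.6%, Mt1 82.5%, Slc7a11 72.8% and Gclc 47.3%.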

How the data were processed

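The 10 genes, the further lists and the tests were chosen with earlier results of these data known. The authors deposited FPKM per RefSeq transcript, 1 column per library. The study's methods name Bowtie 2 and eXpress for such values, and the submitters' processing notes name TopHat2 2.0.10 and GRCm38.p3. The table had 106754 rows. Accessions without version were matched to RefSeq (GRCm38.p6) or GENCODE M21, which named 69.6% of rows with 93.2% of the mNRPC and 89.9% of the retina FPKM. Rows of a gene were summed, and values below 1e-06 were read as 0, which can also be a failed estimate. No count test was run, as only FPKM was used here. Depth came from the most frequent low value of FPKM times length in genes with 1 transcript of at least 1500 bp. The scripts (Python 3.11.15, pandas 2.3.3) were tested on simulated data. The genes named are the 10, chosen regulators, and of each list up to 3 per direction past 2-fold with at least 10 FPKM. Cbs, Gpx7, Sod3, Maff, Fech, Slc39a8, Txnrd2, Cat, the glutaredoxins and the lower transferases were named after their values were seen. Alternatives were pseudocount, minimum, scaling, row choice, matching and threshold.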

Additional observations from a re-analysis of the deposited data

How the results depend on the processing

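Under the 11 alternatives 6 to 9 of the 10 genes were higher in mNRPCs (9 with a pseudocount of 0.1, 7 after rescaling to a common sum, 6 with a threshold of 2 on the log2 scale), and the median log2 ratio was between 1.86 and 2.44. Shares of all genes were calculated only as deposited (24.5% higher and 30% lower) and with the common sum (18.7% and 41.9%). Counts under the other alternatives therefore cannot be set against all genes. With curated rows only, 1 gene, Gclc, was lower, because its predicted row was then left out. Over the alternatives the log2 ratio ran from 0.89 to 1.46 for Mt1, from 0.65 to 1.33 for Slc7a11 and from −1.97 to −0.22 for Gclc.

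The counts of the short lists moved more. Outside the common sum these too have no share of all genes to be read against. With a threshold of 2, fewer by construction, synthesis, recycling and export had 1 higher and 2 lower, the peroxidases 1 lower, the transferases 4 higher and 1 lower, the thioredoxin list 4 higher and 0 lower, the regulators 0 lower, the other targets 1 lower, heme and iron 0 lower and metal handling 0 higher and 1 lower. A minimum of 5 FPKM left 1 lower peroxidase, 2 lower transferases, 0 lower thioredoxin genes and 1 higher metal gene. A pseudocount of 0.1 gave 4 higher synthesis genes. Rescaling to a common sum gave 1 higher synthesis gene, 2 lower thioredoxin genes, 2 lower regulators, 1 higher metal gene and 1 lower selenoprotein gene, and the same sum without photoreceptor markers and ribosomal protein genes gave 1 higher synthesis gene, 1 higher metal gene and 1 lower selenoprotein gene. Upper quartile scaling gave 1 higher metal gene. With the highest transcript row per gene there were 5 higher and 0 lower regulators and 0 higher metal genes. Curated rows only gave 2 lower thioredoxin genes, 0 lower regulators and 1 higher metal gene, and versioned accessions gave 1 higher and 0 lower regulators and 1 higher metal gene. Among the named genes Nfe2l2, Gsto1 and Prdx4 had no value with versioned accessions, so they were not in those counts. For the changes by row choice the cause was not tested. Depth limits genes at or under 3 fragments. No paired analysis was possible because there was only 1 library of mNRPCs and 1 of retina.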
